A study of Mus musculus with 28 samples.

Results

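Transcript levels of 10 genes widely used as readouts of the pluripotent state were followed in the RNA-seq libraries of a Tet2 allelic series. They were Pou5f1, Sox2, Sall4, Utf1, Fbxo15, Lin28a, Dppa5a, Dppa2, Dppa4 and Dppa3. The 10 were chosen by name, with earlier results of these data known, and all were among the 17342 genes of the deposited table. The cells were V6.5 mouse embryonic stem cells (ESCs), a male line of mixed 129/C57BL/6 background, grown in serum and LIF. Of the 28 samples in the series, 7 RNA-seq libraries were used: 3 of Tet2-WT from independent ESCs, 2 of Tet2-Mut and 2 of Tet2-KO from 2 clones of each genotype. The 3 bisulfite and 18 CUT&Tag samples were not analysed here. All cells had been kept on feeders, pre-plated to remove them and left overnight on gelatin. The labels give neither the change carried by Tet2-Mut nor how either allele was made. The study concerned functions of Tet2 apart from its catalytic activity, so each clone type was compared with Tet2-WT and the clone types with each other. The comparisons share libraries: both clone types are set against the same 3 Tet2-WT libraries.

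Tet2 is an enzyme that oxidizes methylated cytosine, mostly at CpG dinucleotides, as a step towards removing the methyl group. Pou5f1 (Oct4) and Sox2 bind composite DNA sites as a pair and, with Nanog, hold the transcription network of ESCs in place. Sall4 is a zinc-finger factor of that network which recruits the NuRD deacetylase complex, and Utf1 and Fbxo15 are classical targets of Oct4 and Sox2. Lin28a is an RNA-binding protein that blocks the maturation of let-7 microRNAs. The Dppa genes were named for their restricted expression in pluripotent cells and do not form 1 family: Dppa2 and Dppa4 are paired chromatin proteins with SAP domains, Dppa5a is a KH-domain RNA-binding protein, and Dppa3 (Stella) binds Uhrf1 and keeps it from directing the maintenance of DNA methylation.

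The values are gene counts divided by DESeq2 size factors, called normalized counts, and the fold changes were fitted by limma on log2(normalized count + 1). A gene passed the test at a Benjamini-Hochberg adjusted p under 0.05 over all 17338 genes tested, and all adjusted p-values below are of this kind unless another tool is named. The libraries held 41.9 to 58.5 M reads assigned to genes, and the 10 genes took 0.443% to 0.506% of them. Tet2 itself was read at 10343, 10244 and 12074 in Tet2-WT, 9992 and 13181 in Tet2-Mut, and 4624 and 5206 in Tet2-KO. The Tet2-KO clones lay below every other library (log2 fold change against Tet2-WT -1.15, adjusted p = 0.0052), while Tet2-Mut and Tet2-WT overlapped. The ESC markers Nanog, Zfp42 and Esrrb were high in every genotype, with means of 24932, 17069 and 35170 in Tet2-WT, 19302, 18427 and 31770 in Tet2-Mut, and 22631, 18334 and 27906 in Tet2-KO. Fibroblast markers, which the feeder layer expresses, summed to 6938 to 7355 over 22 genes in the Tet2-WT libraries, 11229 and 8447 in Tet2-Mut, and 27416 and 13995 in Tet2-KO, and 0 of the 22 were at 0 in any library. Their part in the results below was not tested, and in bulk samples fewer ESCs and less RNA per ESC cannot be told apart.

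Few of the 10 genes passed the test. Against Tet2-WT, Lin28a alone of the 10 passed the test in Tet2-KO, where it was higher, and Fbxo15 alone in Tet2-Mut, also higher. Between the clone types 3 passed: Lin28a was higher, and Dppa2 and Dppa4 lower, in Tet2-KO than in Tet2-Mut. Over all genes tested, 5.91% passed in Tet2-KO against Tet2-WT, 3.43% in Tet2-Mut against Tet2-WT and 6.19% in Tet2-KO against Tet2-Mut, so 1 gene of 10 is close to the background in both comparisons with Tet2-WT. By direction, 3.0% of all genes were higher and 2.91% lower in the first comparison, 1.44% and 1.98% in the second, and 2.64% and 3.55% in the third. The median log2 fold change of the 10 was -0.018 in Tet2-KO and 0.17 in Tet2-Mut against Tet2-WT, and -0.16 between the clone types, beside -0.0021, 0.0093 and 0.0048 for all genes tested. Libraries of the compared genotypes did not overlap for 6 of the 10 genes in Tet2-KO against Tet2-WT, 4 in Tet2-Mut against Tet2-WT and 7 in Tet2-KO against Tet2-Mut. The same held for 44.7%, 40.7% and 44.8% of all genes.

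The number of calls over all genes depended on single libraries, and the counts for gene lists below share this. In Tet2-KO against Tet2-WT, 1025 genes passed (521 higher, 504 lower), and 94, 98 and 85 passed without Tet2-WT replicate 1, 2 or 3, 155 without Tet2-KO replicate 1, and 2158 and 2143 without Tet2-Mut replicate 1 or 2. In Tet2-Mut against Tet2-WT, 594 passed, and 7, 6 and 123 without each Tet2-WT library in turn, 219 without Tet2-Mut replicate 2 and 2198 without Tet2-Mut replicate 1. In Tet2-KO against Tet2-Mut, 1074 passed, and 605, 530 and 661 without each Tet2-WT library, 552 without Tet2-KO replicate 1 and 2679 without Tet2-Mut replicate 1. Where a clone was left out, the lone remaining clone was assumed to vary like the other libraries.

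**Figure D1:**
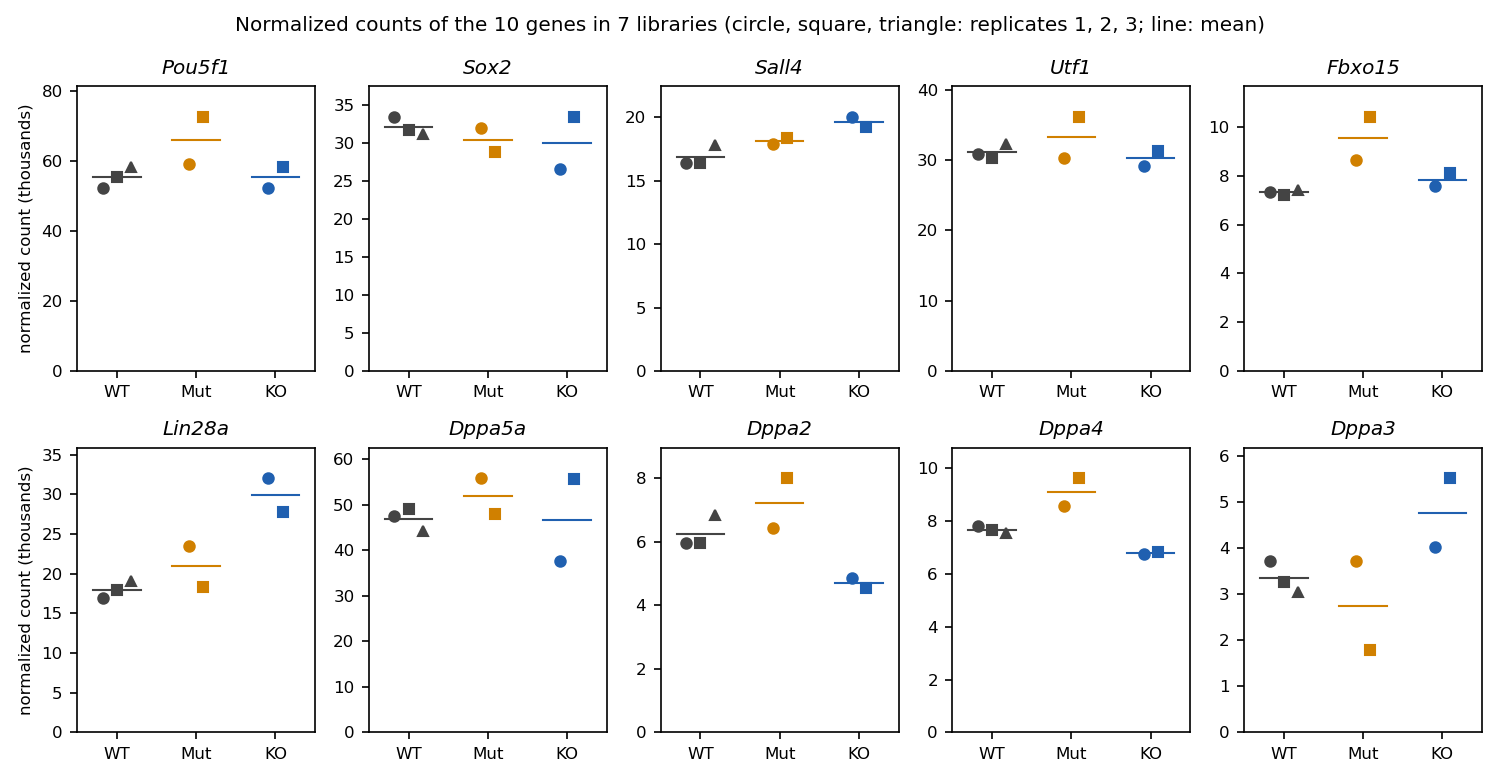
Normalized counts (vertical axis from 0, scaled as labelled) of the 10 genes in the 7 libraries, grouped by genotype, with the symbol giving the replicate and the line the mean. Both Tet2-KO clones of Lin28a, at 32075 and 27762, lie above every other library, both Tet2-KO clones of Dppa2 lie below every other library, and the 2 Tet2-Mut clones of Dppa3, at 3717 and 1783, are far apart.

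Among the core factors, Pou5f1 (chr17:35506032-35510777 on GRCm38, the mm10 build) was read at 52319, 55480 and 58392 in Tet2-WT, 59096 and 72697 in Tet2-Mut, and 52412 and 58247 in Tet2-KO. The Tet2-KO clones lay inside the Tet2-WT range, and both Tet2-Mut clones lay above all other libraries, one of them only just. In Tet2-KO the log2 fold change against Tet2-WT was -0.0023 (95% interval -0.22 to 0.21, adjusted p = 0.993), and in Tet2-Mut it was 0.24 (0.029 to 0.46, adjusted p = 0.190). Tet2-KO and Tet2-Mut differed by -0.25 (-0.48 to -0.011, adjusted p = 0.227). Without Tet2-Mut replicate 1 the other clone alone passed the test, at 0.39 against Tet2-WT (adjusted p = 0.0197) and 0.40 above Tet2-KO (log2 difference -0.40, adjusted p = 0.0204). Over the 16 ways of fitting the data, the adjusted p-values ran from 0.0197 to 0.656 and from 0.0204 to 0.709 in these comparisons.

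Sox2 (chr3:34649995-34652461), which lies inside the long noncoding gene Sox2ot, was read at 33407, 31721 and 31155 in Tet2-WT, 31986 and 28811 in Tet2-Mut, and 26550 and 33439 in Tet2-KO. The 3 genotypes overlapped, and the Tet2-KO clones held both the lowest and the highest library. The log2 fold change was -0.11 in Tet2-KO (95% interval -0.33 to 0.11, adjusted p = 0.565) and -0.080 in Tet2-Mut (-0.30 to 0.14, adjusted p = 0.691), and -0.027 between them (-0.27 to 0.21, adjusted p = 0.922). These intervals leave room for a Sox2 change of up to about 0.3 on the log2 scale in either clone type.

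The stretches just upstream of these core genes are shown because Tet enzymes act on CpG dinucleotides, which are in capitals. Each is 250 bases, 5′ to 3′ towards the start of the gene, from RefSeq on GRCm38.p6, plus strand (chr17:35505782-35506031 and chr3:34649745-34649994).
Pou5f1: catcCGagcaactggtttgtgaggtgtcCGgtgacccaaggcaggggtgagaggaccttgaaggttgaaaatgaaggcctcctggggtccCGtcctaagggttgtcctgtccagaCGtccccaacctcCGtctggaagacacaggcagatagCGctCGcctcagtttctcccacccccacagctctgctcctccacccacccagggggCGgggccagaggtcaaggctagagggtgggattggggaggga
Sox2: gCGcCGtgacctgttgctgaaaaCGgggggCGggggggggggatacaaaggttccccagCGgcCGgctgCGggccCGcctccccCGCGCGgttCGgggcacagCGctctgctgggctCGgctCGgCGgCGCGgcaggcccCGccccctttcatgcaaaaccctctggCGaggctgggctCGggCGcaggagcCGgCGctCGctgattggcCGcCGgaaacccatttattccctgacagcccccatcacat
Pou5f1 held 8 CpGs in this window and Sox2 27, and 57.0% and 91.4% of the 32851 RefSeq mouse promoters of the same length held fewer (median 6). The same table gave 14 CpGs for Utf1 and 7 for Lin28a, whose window lies inside the span of its RefSeq gene, upstream of the start used there. The octamer ATGCAAAT bound by Oct4 and the Sox core AACAATG, searched on both strands, were in neither sequence above (1.60% and 3.29% of all promoters held them). A GC box, GGGCGG, occurred once upstream of Pou5f1 and 2 times upstream of Sox2 (32.7% of promoters held it). Methylation was not analysed here, so these letters are a description only.

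Sall4 (chr2:168748332-168767201) was read at 16438, 16392 and 17830 in Tet2-WT, 17907 and 18412 in Tet2-Mut, and 20075 and 19222 in Tet2-KO. The genotypes stood in that order without overlap, with clones that differed by 1.04-fold or less. The Tet2-KO mean was 1.16-fold that of Tet2-WT (log2 fold change 0.22, SE 0.062, 95% interval 0.078 to 0.36), which missed the threshold (adjusted p = 0.0726). It passed when either Tet2-Mut library was left out (adjusted p = 0.0466 without replicate 1 and 0.0471 without replicate 2), and the range over all fits was 0.0466 to 0.305. Tet2-Mut differed from Tet2-WT by 0.11 (-0.035 to 0.25, adjusted p = 0.370) and from Tet2-KO by 0.11 (-0.041 to 0.27, adjusted p = 0.401). A long noncoding gene, Gm14261, overlaps the start of Sall4, and no strand setting for the counting was found in the labels.

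Of the 13 NuRD subunits measured, the partners through which Sall4 represses transcription, 1 rose and 0 fell in Tet2-KO against Tet2-WT (median log2 fold change 0.064) and 2 rose in Tet2-Mut (0.061). Cdk2ap1, a small NuRD-associated protein, was read at 3816, 3932 and 4363 in Tet2-WT, 5949 and 6027 in Tet2-Mut, and 6425 and 6279 in Tet2-KO. It rose by 0.66 in Tet2-KO (adjusted p = 0.0055) and by 0.57 in Tet2-Mut (adjusted p = 0.0137), and all 4 clones lay above all Tet2-WT libraries. Gatad2a, a scaffold of the complex, rose by 0.31 in Tet2-Mut (adjusted p = 0.0365) and was 0.48 lower in Tet2-KO than in Tet2-Mut (log2 difference -0.48, adjusted p = 0.0061). Gatad2a lies on chromosome 8, where the median log2 fold change of 860 genes was 0.27 in Tet2-Mut and -0.26 in Tet2-KO against Tet2-WT. Chd4, the ATPase of the complex, was at 0.053 in Tet2-KO and 0.080 in Tet2-Mut. In Tet2-Mut 0 of the 13 passed by limma when Tet2-WT replicate 1 or 2 was left out (2 and 3 at an unadjusted p under 0.05), and 1 when Tet2-WT replicate 3 or Tet2-Mut replicate 2 was.

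Of the classical targets of the core pair, Fbxo15 passed the test in Tet2-Mut and Utf1 in no comparison. Utf1 (chr7:139943856-139945112), a chromatin-bound factor of undifferentiated cells, was read at 30888, 30311 and 32364 in Tet2-WT, 30366 and 36217 in Tet2-Mut, and 29192 and 31314 in Tet2-KO. All 3 genotypes overlapped. Its log2 fold change was -0.044 in Tet2-KO (95% interval -0.23 to 0.14, adjusted p = 0.803), 0.089 in Tet2-Mut (-0.094 to 0.27, adjusted p = 0.576) and -0.13 between the clone types (-0.33 to 0.067, adjusted p = 0.452).

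Fbxo15 (chr18:84934552-84981476), an F-box gene whose locus has long served as a reporter of pluripotency, was read at 7347, 7229 and 7426 in Tet2-WT, 8638 and 10430 in Tet2-Mut, and 7567 and 8115 in Tet2-KO. The Tet2-WT libraries differed by 1.03-fold at most, and both clone types lay above them, Tet2-Mut higher than Tet2-KO. Fbxo15 rose 1.29-fold in Tet2-Mut against Tet2-WT (log2 fold change 0.37, SE 0.084, adjusted p = 0.0494). In Tet2-KO the change was 0.096 (-0.095 to 0.29, adjusted p = 0.552), and Tet2-KO was at -0.28 against Tet2-Mut (-0.49 to -0.068, adjusted p = 0.128). The call sat at the edge of the threshold: with a pseudocount of 0.5 the adjusted p was 0.0504, and leaving out Tet2-WT replicate 1, 2 or 3 gave 0.205, 0.206 and 0.116, against 0.156 without Tet2-Mut replicate 2, in a range of 0.0032 to 0.206. Without Tet2-Mut replicate 1, Tet2-KO was lower than the other Tet2-Mut clone (-0.41, adjusted p = 0.0079, range 0.0079 to 0.462). Another gene, Timm21, lies within the span of Fbxo15, and its 4 measured neighbours within 250 kb ranged from -0.083 to 1.17 in Tet2-Mut against Tet2-WT.

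Among 12 other genes known as targets of Oct4 and Sox2, 1 rose and 1 fell in Tet2-KO against Tet2-WT (median log2 fold change -0.015), and 1 rose and 1 fell in Tet2-Mut (0.054). Mycn, the transcription factor N-Myc, rose by 0.68 in Tet2-KO (adjusted p = 0.0052) and by 0.39 in Tet2-Mut (adjusted p = 0.0315). Tdgf1, a coreceptor of Nodal signalling, fell by 0.37 in Tet2-KO (adjusted p = 0.0231), and Nanog fell by 0.37 in Tet2-Mut (adjusted p = 0.0457). Jarid2, a Polycomb cofactor, was lower in Tet2-KO than in Tet2-Mut (-0.42, adjusted p = 0.0428). Of 22 genes of the naive network, 2 fell and 0 rose in Tet2-KO (Tbx3 at -0.87, adjusted p = 0.0085, and Tdgf1; median -0.32), and 3 fell and 0 rose in Tet2-Mut (Tbx3 at -1.17, adjusted p = 0.0058, Dnmt3l at -0.74, adjusted p = 0.0323, and Nanog; median -0.063). Only Sall1, which lies on chromosome 8, passed between the clone types (-0.52, adjusted p = 0.0145). The naive calls in Tet2-KO numbered 0 by limma without any 1 Tet2-WT library (10, 8 and 8 at an unadjusted p under 0.05), 1 without Tet2-KO replicate 1, 9 without Tet2-KO replicate 2 and 8 without either Tet2-Mut library, all of them lower. In Tet2-Mut they numbered 0 without Tet2-WT replicate 1 or 2 (8 and 7 at an unadjusted p under 0.05), 1 with Tet2-WT replicate 3 or Tet2-Mut replicate 2 left out, and 6 without either Tet2-KO library.

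Lin28a (chr4:134003330-134019196) had the largest log2 fold change of the 10 in Tet2-KO against Tet2-WT. It was read at 16938, 17972 and 19141 in Tet2-WT, 23563 and 18325 in Tet2-Mut, and 32075 and 27762 in Tet2-KO. Both Tet2-KO clones lay above all 5 other libraries, while 1 Tet2-Mut clone lay inside the Tet2-WT range and the other above it. Lin28a rose 1.66-fold in Tet2-KO against Tet2-WT (log2 fold change 0.73, SE 0.11, 95% interval 0.48 to 0.98, adjusted p = 0.0109). It was 1.44-fold higher in Tet2-KO than in Tet2-Mut (log2 difference 0.52, SE 0.12, 0.25 to 0.80, adjusted p = 0.0381). Tet2-Mut against Tet2-WT gave 0.21 (-0.042 to 0.46, adjusted p = 0.322).

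The size of the Lin28a difference from Tet2-WT stayed between 0.63 and 0.83 in every fit, and its call held in 11 of 16. The adjusted p became 0.0685, 0.0605 and 0.0554 on leaving out Tet2-WT replicate 1, 2 or 3 and 0.0871 without Tet2-KO replicate 1, in a range of 4.9e-07 (DESeq2) to 0.0871. Against Tet2-Mut the call held in 9 of 16 fits: the adjusted p was 0.0725, 0.0879 and 0.0716 without each Tet2-WT library in turn, 0.124 without Tet2-Mut replicate 2 (log2 difference 0.34) and 0.175 without Tet2-KO replicate 1, in a range of 0.0021 to 0.177. Without any Tet2-WT library, where the spread rests on 4 clones alone, limma called 0 of all genes at the adjusted threshold and 2357 at an unadjusted p under 0.05.

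**Figure D2:**
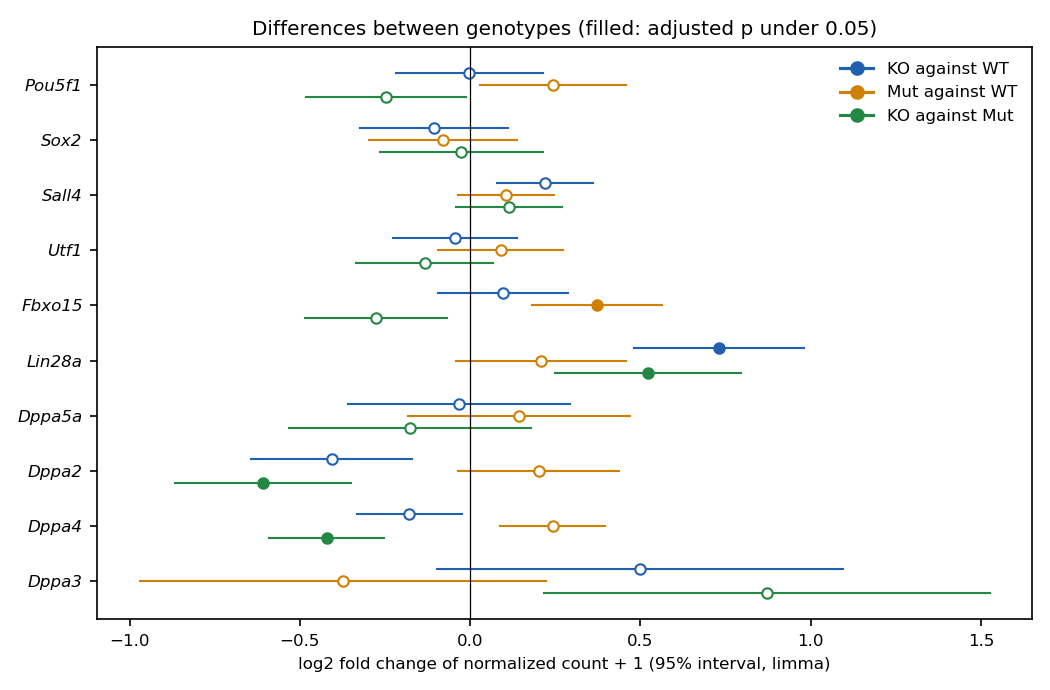
Log2 fold changes of normalized count + 1 (horizontal axis) with 95% intervals from limma for the 10 genes in the 3 comparisons, filled where the adjusted p was under 0.05. Lin28a is filled in both Tet2-KO comparisons, Dppa2 and Dppa4 in Tet2-KO against Tet2-Mut, and Fbxo15 in Tet2-Mut against Tet2-WT, and the intervals of Dppa3 are the widest.

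Lin28a acts on let-7 through short elements in the precursor, shown here because its level was the one that rose in Tet2-KO. The protein binds a GGAG element in the loop region (capitals) and recruits the uridylyl transferases Tut4 and Tut7, after which Dis3l2 degrades the tailed RNA. The hairpins are from RefSeq (chr9:106178840-106178927 on the plus strand, chr13:48538179-48538272 on the minus strand and chr15:85706603-85706697 on the plus strand), and the last of them holds no GGAG.
let-7g hairpin: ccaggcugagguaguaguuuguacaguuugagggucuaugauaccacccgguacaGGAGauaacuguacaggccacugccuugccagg
let-7a-1 hairpin: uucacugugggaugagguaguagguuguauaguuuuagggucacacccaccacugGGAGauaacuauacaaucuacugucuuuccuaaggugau
let-7c-2 hairpin: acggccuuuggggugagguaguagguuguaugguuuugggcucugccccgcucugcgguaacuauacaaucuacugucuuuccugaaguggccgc
Of the 12 let-7 and miR-98 hairpins in the table, 9 held GGAG, beside 44.5% of all 1005 mouse hairpins. Their mature products share the seed at bases 2 to 8 (capitals), by which they recognize messages such as Hmga2.
let-7a-5p: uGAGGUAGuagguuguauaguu
let-7g-5p: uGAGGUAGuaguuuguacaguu
All 9 of the 5p products in the table carry this seed. The RNA-seq table gives gene counts, and mature let-7 was not analysed here.

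Genes of the Lin28 and let-7 axis were counted next. Of 19 measured, 4 rose and 0 fell in Tet2-KO against Tet2-WT (median log2 fold change 0.13), 1 rose in Tet2-Mut (0.036), and 1 was higher in Tet2-KO than in Tet2-Mut (0.091). Hmga2, a chromatin architectural protein and the best known let-7 target, was read at 628, 738 and 686 in Tet2-WT, 1039 and 748 in Tet2-Mut, and 2175 and 1445 in Tet2-KO. It rose 2.60-fold in Tet2-KO against Tet2-WT (adjusted p = 0.0090) and was 2.01-fold higher than in Tet2-Mut (adjusted p = 0.0255), with both Tet2-KO clones above all other libraries. Mycn, a target shared with the Oct4 list, rose 1.60-fold from 12839, 13375 and 14855 to 22293 and 21431. Ccnd1 (cyclin D1) rose 1.60-fold (adjusted p = 0.0156) and Hmga1 1.27-fold (adjusted p = 0.0138).

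Genes of let-7 processing did not pass the test. Tut4, Tut7 and Dis3l2 were at log2 fold changes of -0.15, -0.12 and -0.39 in Tet2-KO against Tet2-WT (adjusted p = 0.291, 0.354 and 0.0731), and Dicer1 and Drosha at -0.036 and 0.047. The paralog Lin28b was at 0.20 in Tet2-KO (adjusted p = 0.387) and 0.46 in Tet2-Mut (adjusted p = 0.0861). The 4 calls in Tet2-KO fell to 1, 2 and 1 without Tet2-WT replicate 1, 2 or 3 and to 1 without Tet2-KO replicate 1. Among the 22 fibroblast markers 10 rose and 0 fell in the same comparison (median 1.30), and fibroblasts also express Hmga2 and Ccnd1. Whether RNA of feeders bears on the calls of this list was not tested.

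The neighbourhood of Lin28a held 12 measured genes within 250 kb. Of these, 1 rose in Tet2-KO against Tet2-WT: Hmgn2, a nucleosome-binding protein gene 35.3 kb away (log2 fold change 0.32, adjusted p = 0.0263). The nearest gene, Dhdds at 2.4 kb, was at 0.0035 (adjusted p = 0.991), and the 12 ranged from -0.55 to 0.47. Over the 7 libraries, the genes whose log2 deviations from the Tet2-WT mean were closest to those of Lin28a, of 12447 candidates, were Zhx1, Ppp1r1a and Nudt11 (root mean square difference 0.057, 0.058 and 0.077). None of them lies on chromosome 4, and Sall4, the nearest of the other 9 genes, ranked only 1023rd (0.30).

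**Figure D3:**
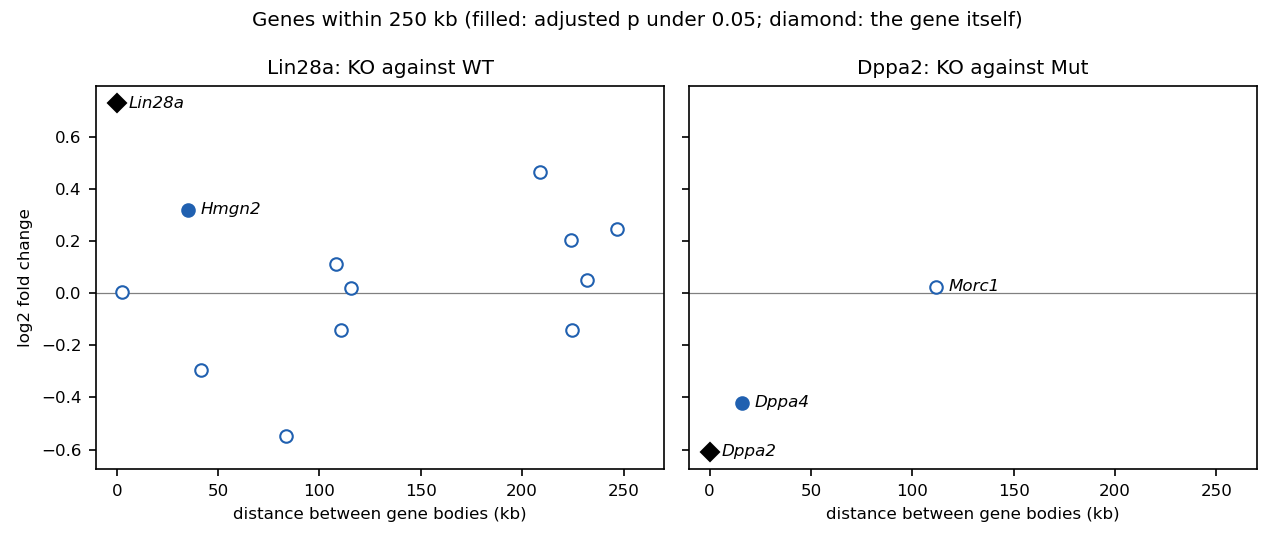
Log2 fold change (vertical axis) of measured genes within 250 kb of Lin28a in Tet2-KO against Tet2-WT (left) and of Dppa2 in Tet2-KO against Tet2-Mut (right), by distance between gene bodies in kb. Of the neighbours, Hmgn2 at 0.32 and Dppa4 at -0.42 passed the test, and Morc1 next to the Dppa pair lies at 0.026.

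Dppa5a (chr9:78367052-78368199), the other RNA-binding protein of the set, was read at 47666, 49016 and 44256 in Tet2-WT, 55914 and 48084 in Tet2-Mut, and 37709 and 55802 in Tet2-KO. The Tet2-KO clones differed by 1.48-fold and spanned the whole Tet2-WT range, and 80.1% of all genes differed less between these clones. No comparison passed the test: -0.033 in Tet2-KO (95% interval -0.36 to 0.29, adjusted p = 0.924), 0.14 in Tet2-Mut (-0.18 to 0.47, adjusted p = 0.616) and -0.18 between them (-0.53 to 0.18, adjusted p = 0.592). Without Tet2-KO replicate 2, the remaining clone was lower than Tet2-Mut (-0.46, adjusted p = 0.0465, range 0.0465 to 0.860), and without Tet2-KO replicate 1 the sign was opposite (0.11). Of 3 KH-domain relatives measured, Khdc3, a maternal-effect gene, fell in both clone types (-1.26 in Tet2-KO, adjusted p = 0.0109, and -1.81 in Tet2-Mut, adjusted p = 0.0063), and Ooep was at 0.018 and -0.16.

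The chromatin pair Dppa2 and Dppa4 lie 16 kb apart on chromosome 16, at 48310274-48319513 and 48283735-48294292, and their proteins work as a heterodimer at promoters of developmental and germline genes. Dppa2 was read at 5974, 5954 and 6850 in Tet2-WT, 6438 and 8008 in Tet2-Mut, and 4865 and 4560 in Tet2-KO. Dppa4 was read at 7818, 7656 and 7570 in Tet2-WT, 8565 and 9638 in Tet2-Mut, and 6746 and 6828 in Tet2-KO. For each gene both Tet2-KO clones lay below all 5 other libraries. Both Tet2-Mut clones of Dppa4 lay above Tet2-WT, while Tet2-Mut and Tet2-WT overlapped for Dppa2.

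Tet2-KO against Tet2-Mut gave 1.52-fold lower Dppa2 (log2 difference -0.61, SE 0.11, 95% interval -0.87 to -0.35, adjusted p = 0.0168) and 1.34-fold lower Dppa4 (-0.42, SE 0.075, -0.59 to -0.25, adjusted p = 0.0138). Each call held in 13 of 16 fits. Neither held by limma with only the compared genotypes fitted, where the spread rests on the clones alone. Dppa4 also did not pass with the replicate number as a block. Without Tet2-KO replicate 1 the adjusted p was 0.0532 for Dppa2 and 0.0564 for Dppa4, and without Tet2-KO replicate 2 it was 0.0666 for Dppa2, in ranges of 1.1e-04 to 0.112 and 2.1e-04 to 0.134. Neither gene passed against Tet2-WT: in Tet2-KO Dppa2 was at -0.41 (-0.64 to -0.17, adjusted p = 0.0540) and Dppa4 at -0.18 (-0.33 to -0.024, adjusted p = 0.158), and in Tet2-Mut they were at 0.20 (-0.034 to 0.44, adjusted p = 0.307) and 0.24 (0.088 to 0.40, adjusted p = 0.0894). In Tet2-KO against Tet2-WT Dppa2 passed in 6 of 16 fits and Dppa4 in 0. For Dppa2 these included DESeq2 (adjusted p = 0.0094) and a pseudocount of 10 (0.0491), in a range of 0.0094 to 0.208. Its log2 fold change ran from -0.45 to -0.34 over all fits. Without Tet2-Mut replicate 1 the other clone passed against Tet2-WT for both genes (Dppa2 0.36, adjusted p = 0.0419, range 0.0419 to 0.869, and Dppa4 0.33, adjusted p = 0.0168, range 0.0168 to 0.312).

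Within each library the normalized count of Dppa2 divided by that of Dppa4 was 0.764, 0.778 and 0.905 in Tet2-WT, 0.752 and 0.831 in Tet2-Mut, and 0.721 and 0.668 in Tet2-KO. Both Tet2-KO ratios lay below all others, a description with no test. Morc1, the other measured gene within 250 kb of Dppa2, was at 0.026 between the clone types (adjusted p = 0.948). The genes closest to Dppa2 over the 7 libraries were Spire2, Cacna1a and Lamp1 (root mean square difference 0.059, 0.060 and 0.065), all on chromosome 8. Those closest to Dppa4 were Terf2ip on chromosome 8 (0.021), Pcyt1b on chromosome X (0.046) and Nhsl1 on chromosome 10 (0.047). Those closest to Fbxo15 were Msantd3, Zfp746 and Aldh2 (0.047, 0.050 and 0.052), on chromosomes 4, 6 and 5. The 860 genes of chromosome 8 had median log2 deviations from the Tet2-WT mean of 0.29 and 0.27 in the Tet2-Mut clones and -0.28 and -0.24 in the Tet2-KO clones, while the 466 genes of chromosome 16, which carries the pair, were at -0.0075, -0.0062, 0.013 and -0.0050. Whether the level of chromosome 8 bears on the Dppa pair was not tested.

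Lists of the 2-cell-like state and the germline, which include genes known to depend on Dppa2 and Dppa4, were counted next. Those that passed were lower in Tet2-KO, with 1 exception. Whether they follow the levels of Dppa2 and Dppa4 was not tested, and Dux, listed for the 2-cell-like state, was not among the genes measured. Of 11 measured genes of the 2-cell-like state, 2 fell and 0 rose in Tet2-KO against Tet2-WT (median log2 fold change -1.85), 0 of 11 passed in Tet2-Mut by limma, edgeR or DESeq2 (0 also at an unadjusted p under 0.05; median 0.38), and 3 were lower in Tet2-KO than in Tet2-Mut (median -2.28, or -2.25 with Tmem92 at its bound). The genes of this list that passed had low counts. Zscan4a was read at 68.2, 22.6 and 49.6 in Tet2-WT, 33.0 and 44.4 in Tet2-Mut, and 8.3 and 2.1 in Tet2-KO, where 3 reads set a floor of about 3 (log2 fold change -3.03, adjusted p = 0.0277). Tmem92 was at 20.0, 16.9 and 23.6 in Tet2-WT, 20.6 and 3.9 in Tet2-Mut and 0 in both Tet2-KO clones, at least 6.51-fold lower than Tet2-WT at a floor of 3 reads per library. None of the 11 passed in limma against Tet2-WT without any 1 of the 3 Tet2-WT libraries (6, 5 and 8 at an unadjusted p under 0.05), and near-identical Zscan4 copies may share reads.

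Of 16 measured germline genes, 3 fell and 1 rose in Tet2-KO against Tet2-WT (median -0.42), 0 passed in Tet2-Mut (limma, with 4 at an unadjusted p under 0.05; edgeR 0, DESeq2 3; median -0.029), and 3 were lower in Tet2-KO than in Tet2-Mut (median -0.39). Stra8, which licenses entry into meiosis, was read at 220, 184 and 319 in Tet2-WT, 159 and 262 in Tet2-Mut, and 52.6 and 37.2 in Tet2-KO. It fell by 2.38 on the log2 scale in Tet2-KO (adjusted p = 0.0082), with no overlap. Syce1 and Hormad1, proteins of meiotic chromosomes, fell by 0.70 and 0.71 (adjusted p = 0.0443 and 0.0342), and Tex19.1, a germline defence gene also active in ESCs, rose by 0.58 (adjusted p = 0.0248). Without Tet2-KO replicate 1, or without Tet2-WT replicate 1 or 2, 1 of the 16 fell and 0 rose, and with Tet2-WT replicate 3 left out none passed in limma (8 at an unadjusted p under 0.05).

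Dppa3 (chr6:122626424-122630271) had the largest gap between clones of the 10. It was read at 3728, 3259 and 3056 in Tet2-WT, 3717 and 1783 in Tet2-Mut, and 4019 and 5521 in Tet2-KO. The Tet2-KO clones lay above all other libraries, 1 Tet2-Mut clone lay inside the Tet2-WT range and the other below every library. The Tet2-Mut clones differed by 2.09-fold, more than 91.1% of all genes between these clones, whose median difference was 1.17-fold. None of the comparisons passed: 0.50 in Tet2-KO (95% interval -0.099 to 1.09, adjusted p = 0.301), -0.37 in Tet2-Mut (-0.97 to 0.22, adjusted p = 0.461) and 0.87 between them (0.22 to 1.52, adjusted p = 0.125).

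The Dppa3 calls in the comparisons with Tet2-Mut depended on which of its clones was kept. Without Tet2-Mut replicate 1, Tet2-KO exceeded the other clone by 1.40 (adjusted p = 0.0010, range 0.0010 to 0.392) and that clone was lower than Tet2-WT by 0.90 (log2 fold change -0.90, adjusted p = 0.0074, range 0.0074 to 0.732), while without Tet2-Mut replicate 2 the sign against Tet2-WT turned (0.16). Leaving out Tet2-Mut replicate 1 or 2 also brought Tet2-KO against Tet2-WT past the threshold (adjusted p = 0.0364 and 0.0365, range 0.0363 to 0.672). Reads from processed pseudogenes of Dppa3, as of Pou5f1, cannot be told apart from the gene here.

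Of 11 genes around Dppa3 in DNA methylation, 1 rose in Tet2-KO against Tet2-WT (median -0.054), and 1 rose and 2 fell in Tet2-Mut (0.053). Uhrf1, the protein Dppa3 holds back, was read at 23508, 23389 and 22933 in Tet2-WT, 18933 and 18812 in Tet2-Mut, and 19865 and 21392 in Tet2-KO. All 4 clones lay below Tet2-WT, and Uhrf1 fell by 0.30 in Tet2-Mut (adjusted p = 0.0328) and was at -0.18 in Tet2-KO (adjusted p = 0.110). Dnmt1, the maintenance methyltransferase, was at -0.19 and -0.18 in Tet2-KO and Tet2-Mut (adjusted p = 0.115 and 0.149). The de novo methyltransferase Dnmt3b rose by 1.14 in Tet2-KO (adjusted p = 0.0056), to 54040 and 39689 from 20723 to 21243, and Dnmt3a rose by 0.60 in Tet2-Mut (adjusted p = 0.0313), where the cofactor Dnmt3l fell. Tet1 was lower in Tet2-KO than in Tet2-Mut (-0.57, adjusted p = 0.0079). In Tet2-Mut 0 of the 11 passed by limma without any 1 Tet2-WT library or Tet2-Mut replicate 2 (4 or 5 at an unadjusted p under 0.05), and in Tet2-KO 3 rose without Tet2-KO replicate 2 and 3 rose and 2 fell without either Tet2-Mut library.

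Genes of the formative and primed states, which follow the naive state and in which Lin28a and Sall4 are also expressed, were counted beside the 10. Of 19 measured, 12 rose and 0 fell in Tet2-KO against Tet2-WT (median log2 fold change 1.08). In Tet2-Mut 2 rose, Dnmt3a and Sox4, and 0 fell (0.25). Between the clone types, 7 were higher and 1 lower in Tet2-KO (0.79). The median log2 deviation from the Tet2-WT mean was 0.44 and 0.055 in Tet2-Mut replicates 1 and 2. In the same order, Fgf5 was at 0.94 and -2.69, Otx2 at 0.69 and -2.40, and Pim2 at 0.16 and -1.14. Dnmt3a (0.46 and 0.74) and Sox4 (1.10 and 0.67) were above 0 in both. The Tet2-Mut counts therefore do not describe both clones alike. Besides Dnmt3b, the transcription factor genes Sox3 (2.47, adjusted p = 0.0052), Sall2 (1.92, adjusted p = 0.0062) and Sox4 (1.34, adjusted p = 0.0090) rose in Tet2-KO. Otx2, Sall2, Zic2 and Zic5 of this list lie on chromosome 14, which carries none of the 10 genes. Its 568 genes had median log2 deviations of -0.047 and 0.49 in the Tet2-Mut clones and -0.0083 and -0.026 in the Tet2-KO clones. Whether this bears on the counts was not tested. The 12 calls fell to 3 without any 1 of the Tet2-WT libraries and to 4 without Tet2-KO replicate 1. Of 12 primitive streak genes 5 rose (median 1.58), of 7 neural genes 4 (0.59), of 11 trophectoderm genes 3 (-0.20) and of 12 primitive endoderm genes 0 by limma (1 at an unadjusted p under 0.05; -0.12).

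**Figure D4:**
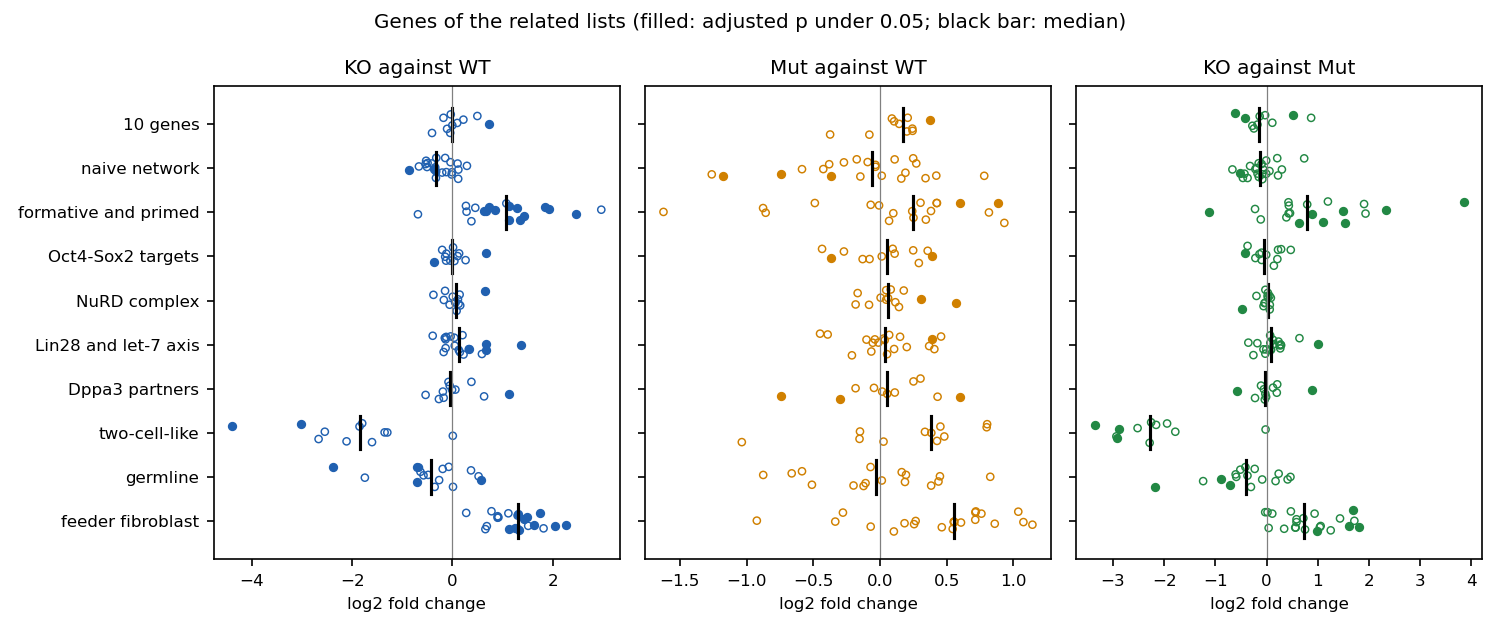
Log2 fold changes (horizontal axis) of the 10 genes and of the genes in 9 related lists, in the 3 comparisons (panels with their own scales), filled where the adjusted p was under 0.05, with the median as a black bar. In Tet2-KO against Tet2-WT the 10 genes gather around their median of -0.018, while the formative and primed genes (median 1.08) and feeder fibroblast markers (1.30) lie to the right and the 2-cell-like genes (-1.85) to the left.

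Clone by clone, the median log2 deviation of the 10 genes from the Tet2-WT mean was 0.13 and 0.17 in the Tet2-Mut clones and -0.087 and 0.11 in the Tet2-KO clones, beside 0.82, 0.24, 1.64 and 0.90 for the 22 fibroblast markers. Of the 10 genes, 8 had a positive log2 fold change in Tet2-Mut against Tet2-WT, 4 in Tet2-KO against Tet2-WT and 3 in Tet2-KO against Tet2-Mut, beside 51.5%, 49.6% and 50.7% of all genes tested.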

How the data were processed

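RNA-seq of 7 libraries was used. The authors deposited a table of 17342 genes with signal values that are gene counts divided by DESeq2 size factors, per its column names and values. Trim Galore 0.6.5, STAR 2.7.3a, featureCounts, DESeq2 and the mm10 build are named in the submitters' processing notes; the annotation and the strand setting are not given in the sources used here. In each library 100% of the deposited values were whole multiples of the value of 1 read within 0.01 reads, so reads were recovered by division; 1 library, Tet2-WT replicate 1, holds no value of 1 read and its step was taken from higher values. The recovered totals exceed the reads per sample that the design text gives, and whether mates were counted separately is not given.

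Values were tested as log2(normalized count + 1) with limma 3.58.1 (trend, R 4.3.3), 1 fit over all 7 libraries, after a filter of at least 10 in at least 2 libraries that left out 4 genes and none of the 10 described here; p-values were adjusted by Benjamini-Hochberg. The test was also run on simulated data with the same spread for all genes and genotypes. That simulation cannot show how the test fares where clones vary more than the Tet2-WT libraries. Alternatives were pseudocounts of 0.5 and 10, no filter, a mean of at least 50, upper quartile scaling, only the groups compared, a replicate block, edgeR 4.0.16 and DESeq2 1.42.0 on recovered reads (edgeR called 1110, 582 and 1054 genes in the 3 comparisons), and each library left out. Chi-square per degree of freedom was 7.14 to 13.2 between Tet2-WT libraries, 44.1 between the Tet2-Mut clones and 33.4 between the Tet2-KO clones. None was therefore counted as a repeat. The p-values rest on a spread pooled over these cultures and clones. The Tet2-WT libraries, which differ less, enter it in every comparison, so the p-values can understate the spread between clones.

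The members and the lists were chosen with earlier results of these data known. Named from the lists were genes that passed, at most 4 per list and comparison by p, with list counts and medians; Chd4, Tut4, Tut7, Dis3l2, Dicer1, Drosha, Lin28b, Dnmt1 and Ooep were named for their role with their values in view. For members that passed, the 3 genes with the smallest root mean square difference were taken among those with a mean of at least 50. Sequences and gene positions are from RefSeq tables of GRCm38.p6; 4 of the 10 members had a promoter entry. Exon lengths were not used, so levels of different genes are not compared.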

Additional observations from a re-analysis of the deposited data

How the results depend on the processing

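Of 480 recomputed fold changes of the 10 genes, 422 kept their direction and their side of the threshold, 24 lost a call, 21 gained one and 13 changed sign. Without one library at a time, the number of the 10 genes past the test ran from 0 to 4 (Tet2-KO against Tet2-WT), 0 to 5 (Tet2-Mut against Tet2-WT) and 0 to 6 (Tet2-KO against Tet2-Mut), and of all genes from 85 to 2158, from 6 to 2198 and from 530 to 2679. With only the groups compared, 4 of the 10 and 2159 genes passed in Tet2-KO against Tet2-WT, 900 genes in Tet2-Mut against Tet2-WT, and 0 of the 10 and 0 genes in Tet2-KO against Tet2-Mut by limma (4 and 2357 at an unadjusted p under 0.05). DESeq2 called 2 of the 10 and 1992 genes, 2 and 1555, and 1808 genes in the 3 comparisons. In Tet2-KO against Tet2-WT 2 of the 10 passed with a pseudocount of 10 or upper quartile scaling, and in Tet2-Mut against Tet2-WT 0 passed with a pseudocount of 0.5 (3 at an unadjusted p under 0.05). None of the values that changed sign was past the threshold. In Tet2-KO against Tet2-WT edgeR gave 0.0066 for Pou5f1 and 0.0023 for Dppa5a, and the values without one library ran from -0.078 to 0.074 for Pou5f1 (0.036 without Tet2-WT replicate 3), -0.27 to 0.060 for Sox2, -0.095 to 0.0064 for Utf1 and -0.32 to 0.25 for Dppa5a. They ran in Tet2-Mut against Tet2-WT from -0.038 to 0.22 for Utf1 and -0.90 to 0.16 for Dppa3, and in Tet2-KO against Tet2-Mut from -0.19 to 0.14 for Sox2 (0.049 without Tet2-Mut replicate 1) and -0.46 to 0.11 for Dppa5a. The cause was not tested. Leaving out a genotype or a library leaves fewer residual degrees of freedom than the 4 of the full fit, and calls rose in some of these fits and fell in others. No scaling moved the median of all genes by over 0.1. Precision rests on the number of libraries, since the lowest value of the 10 genes in any library was 1783.

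Replicate numbers were taken as names of cultures and clones only. Deviations from the genotype means correlated at -0.0729 to 0.0871 over 6 pairs of same-numbered libraries. In a genotype with 2 libraries the deviations mirror each other. The 6 values are therefore not independent and cannot settle whether the numbers pair libraries. With the replicate number as a block, 0 of the 10 and 15 genes passed in Tet2-KO against Tet2-WT (Lin28a 0.77, adjusted p = 0.0583; Pou5f1 at 0.036), 0 and 7 in Tet2-Mut against Tet2-WT, and 1 (Dppa2) and 467 in Tet2-KO against Tet2-Mut.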
